A study of Mus musculus with 12 samples.

Results

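Of the 13 protein genes that mouse mitochondrial DNA encodes, 8 are described here: mt-Nd1, mt-Nd2, mt-Nd4, mt-Nd4l, mt-Nd5, mt-Nd6, mt-Cytb and mt-Atp8. They were chosen by matching the Ensembl identifiers of the deposited table to mouse gene symbols and keeping these 8 of its 30323 genes; mt-Co1, mt-Co2, mt-Co3, mt-Atp6 and mt-Nd3 serve only for comparison. RNA came from the soleus, a slow postural muscle of the calf, of 24-month-old male C57BL/6N mice from the NIA aging colony. In all 4 groups the mice were housed alone and had a running wheel for 8 weeks. The groups were high functioning (HF) mice after laparotomy, an opening of the abdominal wall, HF controls, low functioning (LF) mice after laparotomy and LF controls, with 3 libraries each. HF and LF were set by performance on an accelerating rotarod, and the muscle was taken 5 days after surgery. The labels do not say whether each library is a separate mouse, so the p-values measure only the spread between these libraries. Values are TPM, a relative abundance that is scaled by gene length, and levels of different genes are set side by side on that scale. How well the scaling holds for short genes such as mt-Atp8, of 204 bases, was not tested.

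Mitochondrial DNA is a small circle whose strands are called heavy and light after their density. Each strand is transcribed into long RNAs that carry many genes, and most messages are freed by cutting out the transfer RNAs that lie between them. Muscle depends on these genes for aerobic energy supply. The mt-Nd genes encode membrane subunits of complex I, which takes electrons from NADH and pumps protons. mt-Cytb encodes cytochrome b, the catalytic membrane core of complex III, and mt-Atp8 encodes a small membrane subunit of ATP synthase. Of the 8, 7 are transcribed from the heavy strand, and mt-Nd6 is the protein gene of the light strand transcript.

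The members adjoin or overlap their neighbours, and 3 overlaps are shown because they set how far reads can be told apart. The sequences were read from the GENCODE M21 transcripts of GRCm38, are written as DNA on the plus strand of the annotation, and have the bases shared by both genes in capitals.
mt-Nd4l into mt-Nd4, chrM:10147-10193: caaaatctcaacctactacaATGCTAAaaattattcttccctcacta
mt-Atp8 into mt-Atp6, chrM:7907-7989: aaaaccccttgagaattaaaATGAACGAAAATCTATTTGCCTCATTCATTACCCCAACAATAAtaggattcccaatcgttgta
mt-Nd5 against mt-Nd6, chrM:13532-13585: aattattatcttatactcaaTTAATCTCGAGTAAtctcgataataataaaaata
mt-Nd4l and mt-Nd4 share 7 bases of the same strand, so that the start codon of mt-Nd4 lies within the end of mt-Nd4l. mt-Atp8 shares its last 43 bases, 21.1% of its 204, with mt-Atp6. mt-Nd5 and mt-Nd6 meet tail to tail on opposite strands and overlap by 14 bases.

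The ends of 3 transcripts show how the genes differ in their stop codons, which are in capitals and written 5′ to 3′ on the gene's own strand.
mt-Nd4, last 30 bases, chrM:11515-11544, plus strand: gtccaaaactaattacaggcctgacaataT
mt-Cytb, last 30 bases, chrM:15259-15288, plus strand: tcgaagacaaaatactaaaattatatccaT
mt-Nd6, last 30 bases, chrM:13552-13581, minus strand: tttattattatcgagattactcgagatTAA
The annotated mt-Nd4 and mt-Cytb end on 1 base after their last whole codon; such stop codons are completed by the poly(A) tail in mammalian mitochondria. The other 6 members carry a whole stop codon as annotated, mt-Nd6 among them. The last 2 bases of mt-Nd1 and of mt-Nd2 also lie in the transfer RNA genes mt-Ti and mt-Tw of the same strand. Where the messages of mt-Nd1 and mt-Nd2 end was not tested. In human cells the message of mt-Nd6 is known to lack a poly(A) tail, whereas the libraries here were made with a polyA pull-down. How mt-Nd6 RNA entered them was not tested.

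The light strand member also stood apart in its bases. G made up 28.1% of mt-Nd6 and between 5.9% and 12.2% of the 7 heavy strand members. C made up 6.0% of mt-Nd6 against at least 25.8%, and T 43.7% against 27.4% to 30.1%. The total of G and C, at 34.1%, lay within the heavy strand range of 31.9% to 41.1%. The first 30 bases of mt-Nd6 and of its heavy strand neighbour mt-Cytb show the difference, with the start codon in capitals.
mt-Nd6, first 30 bases, chrM:14041-14070, minus strand: ATGaataattatatttttgttttaagttca
mt-Cytb, first 30 bases, chrM:14145-14174, plus strand: ATGacaaacatacgaaaaacacacccatta
The annotated start codon was ATG in 5 members, and GTG in mt-Nd1, ATA in mt-Nd2 and ATC in mt-Nd5, all of which start translation in vertebrate mitochondria. The members' lengths ran from 204 bases in mt-Atp8 to 1824 bases in mt-Nd5.

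**Figure D1:**
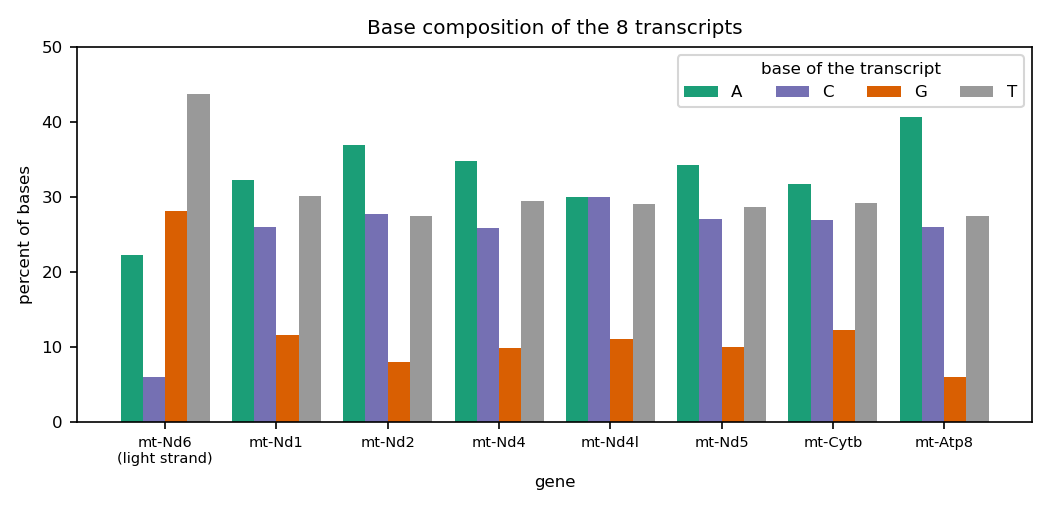
Percent of A, C, G and T (y axis, percent of bases) in the 8 annotated transcripts (x axis, mt-Nd6 first). The mt-Nd6 bars show 28.1% G and 6.0% C, whereas the 7 heavy strand genes have at most 12.2% G and at least 25.8% C.

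The table held 12 libraries with TPM totals of 956473 to 962830, and their read depth is unknown, so no counting interval can be had. Slow fibre markers summed to 27365 to 42613 TPM and fast fibre markers to 20990 to 35144 TPM per library, and none of the markers listed for 9 cell types was at 0 in all libraries, although Plin1, an adipocyte marker, reached only 0.0552 TPM. The library LF laparotomy 3 stood apart in the genes described here. It had the lowest value of the 12 libraries for all 8 members, at 51.7% (mt-Atp8) to 78.9% (mt-Nd6) of the median of the other 11. Of the 5 other mitochondrially encoded genes only mt-Atp6 was lowest there, at 72.2% of that median, while mt-Co1 was at 91.9%, mt-Co3 at 91.2%, mt-Co2 at 85.3% and mt-Nd3 at 100.2%. The same library had the highest fast fibre sum, 35144 TPM against 20990 to 33183 TPM in the others. Actn3 of that list was nonetheless lowest there, at 9.15 TPM. This library also had the highest sum of satellite cell markers, at 12.6 against 7.31 to 10.4 TPM. Most of that sum was Cdh15, at 10.9 TPM, while Pax7 (0.736 TPM) and Myf5 (0.898 TPM) were not highest there. LF laparotomy 3 had the lowest erythroid sum, 974 against 1099 to 3705 TPM. Its fibroadipogenic sum was also lowest, 176 against 184 to 365 TPM, as was its Schwann sum, 33.1 against 34.3 to 166 TPM. The part of these markers in the low member values was not tested. In bulk muscle, fewer cells of a type and less RNA per cell cannot be told apart. Member medians of the comparisons that include this library are also given without it.

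**Figure D2:**
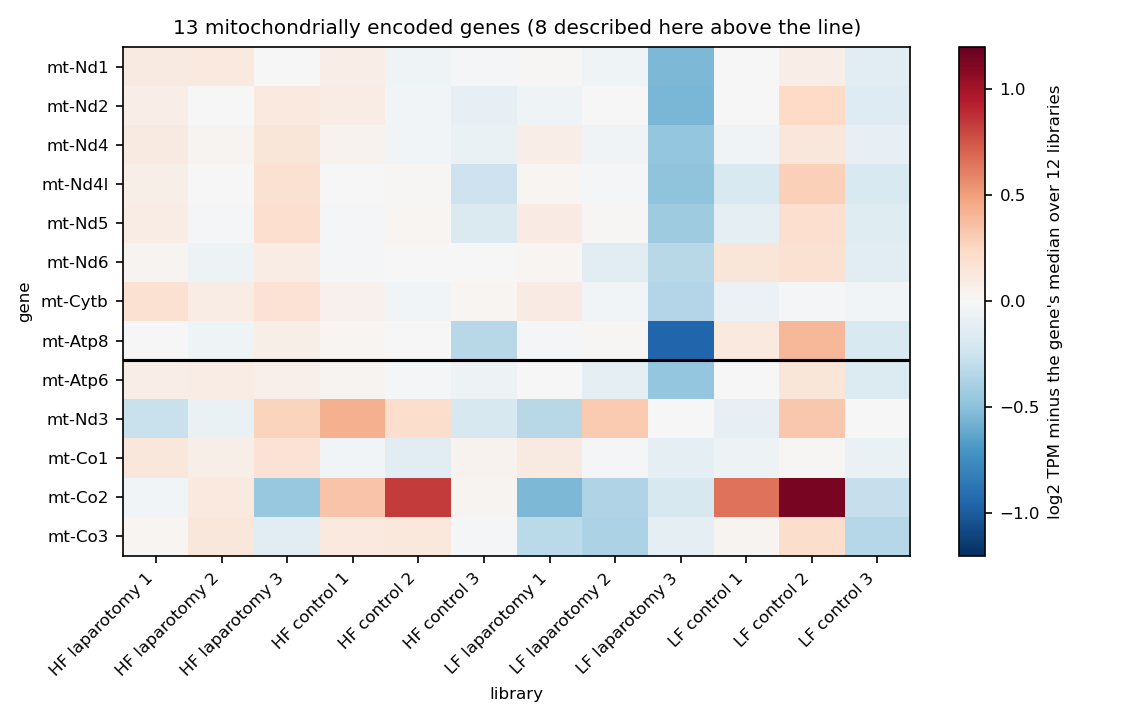
Level of the 13 mitochondrially encoded genes (rows; the 8 members above the black line) in the 12 libraries (columns), as log2 TPM minus the gene's own median over the libraries, in color. LF laparotomy 3 is the blue column across all 8 members and mt-Atp6, and mt-Co2 varies most among the other genes.

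The 8 members were among the most abundant transcripts of the muscle, ranking 3 to 18 of the table by mean TPM. Together they made up 12.1% to 20.6% of the TPM in a library, and the 13 mitochondrially encoded genes 26.4% to 39.7%. mt-Atp8 was highest, with a mean of 44359 ± 8637 TPM (SD, n = 12 libraries). mt-Cytb followed at 27308 ± 2508 TPM, mt-Nd4 at 20116 ± 2093 TPM, mt-Nd1 at 19723 ± 2117 TPM, mt-Nd4l at 18002 ± 2461 TPM and mt-Nd2 at 16219 ± 1988 TPM. The light strand member mt-Nd6 averaged 13770 ± 1268 TPM, and mt-Nd5, the longest, was lowest at 8637 ± 1016 TPM. 

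Not every step of this order held in each library. mt-Atp8 exceeded mt-Cytb, mt-Cytb exceeded mt-Nd4, mt-Nd2 exceeded mt-Nd6 and mt-Nd6 exceeded mt-Nd5 in 12 of 12 libraries. mt-Nd4 exceeded mt-Nd1 in only 8 of 12, with ratios of 0.955 to 1.116, so these neighbours did not differ beyond their spread. mt-Nd1 exceeded mt-Nd4l in 10 and mt-Nd4l exceeded mt-Nd2 in 11.

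mt-Cytb, of complex III, had 30672, 28806 and 30498 TPM in HF laparotomy, 28080, 26461 and 27488 TPM in HF controls, 29066, 26468 and 21245 TPM in LF laparotomy and 25746, 26679 and 26481 TPM in LF controls. The HF laparotomy libraries lay above the HF controls without overlap, which held for 1 of the 8 members and in this direction for 0.604% of the 10757 genes tested. The LF laparotomy libraries lay on both sides of the LF controls. The difference between laparotomy and control in HF was 0.13 ± 0.11 on the log2 scale (limma, log2 of TPM plus 1, SE, n = 3 libraries each, adjusted p = 0.661), with a 95% interval from −0.10 to 0.37.

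mt-Nd1, a complex I subunit of the membrane arm, had 20131 to 21720 TPM in HF laparotomy, 19302 to 21149 TPM in HF controls, 13826 to 20256 TPM in LF laparotomy and 18349 to 21149 TPM in LF controls. These groups overlapped, and the level outside LF laparotomy 3 stayed within 18349 to 21720 TPM. mt-Nd2, a proton-pumping subunit next along the map, had 17417, 16448 and 17772 TPM in HF laparotomy, 17440, 16024 and 15358 TPM in HF controls, 15850, 16428 and 11219 TPM in LF laparotomy and 16516, 19378 and 14778 TPM in LF controls. After laparotomy the HF and LF libraries of mt-Nd2 did not overlap, but the lowest HF library exceeded the highest LF library by only 20 TPM; 4.29% of all tested genes were higher in HF in this way. mt-Nd4 and mt-Nd4l, further pumping and membrane subunits, ran from 14683 to 22464 TPM and from 13199 to 22390 TPM over the 12 libraries, with overlapping groups.

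mt-Nd5, the largest pumping subunit, had 9244, 8574 and 10042 TPM in HF laparotomy, 8629, 8852 and 7712 TPM in HF controls, 9328, 8800 and 6465 TPM in LF laparotomy and 8071, 10048 and 7882 TPM in LF controls. mt-Nd6, a smaller subunit of the same membrane arm, had 14198, 13307 and 14758 TPM in HF laparotomy, 13623, 13957 and 13778 TPM in HF controls, 14114, 12711 and 11013 TPM in LF laparotomy and 15351, 15715 and 12710 TPM in LF controls. For both genes every pair of groups overlapped. The 3 HF controls of mt-Nd6 spanned only 334 TPM, and the LF controls 3004 TPM.

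mt-Atp8 had 45626, 44215 and 48108 TPM in HF laparotomy, 46605, 45871 and 36256 TPM in HF controls, 45162, 46293 and 23715 TPM in LF laparotomy and 49645, 60410 and 40398 TPM in LF controls. It was the most variable member, with an SD of 19.5% of its mean over the 12 libraries, against 9.18% for mt-Cytb and 9.21% for mt-Nd6. Its lowest library was LF laparotomy 3 and its highest LF control 2, a library in which 5 of the 8 members were highest.

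**Figure D3:**
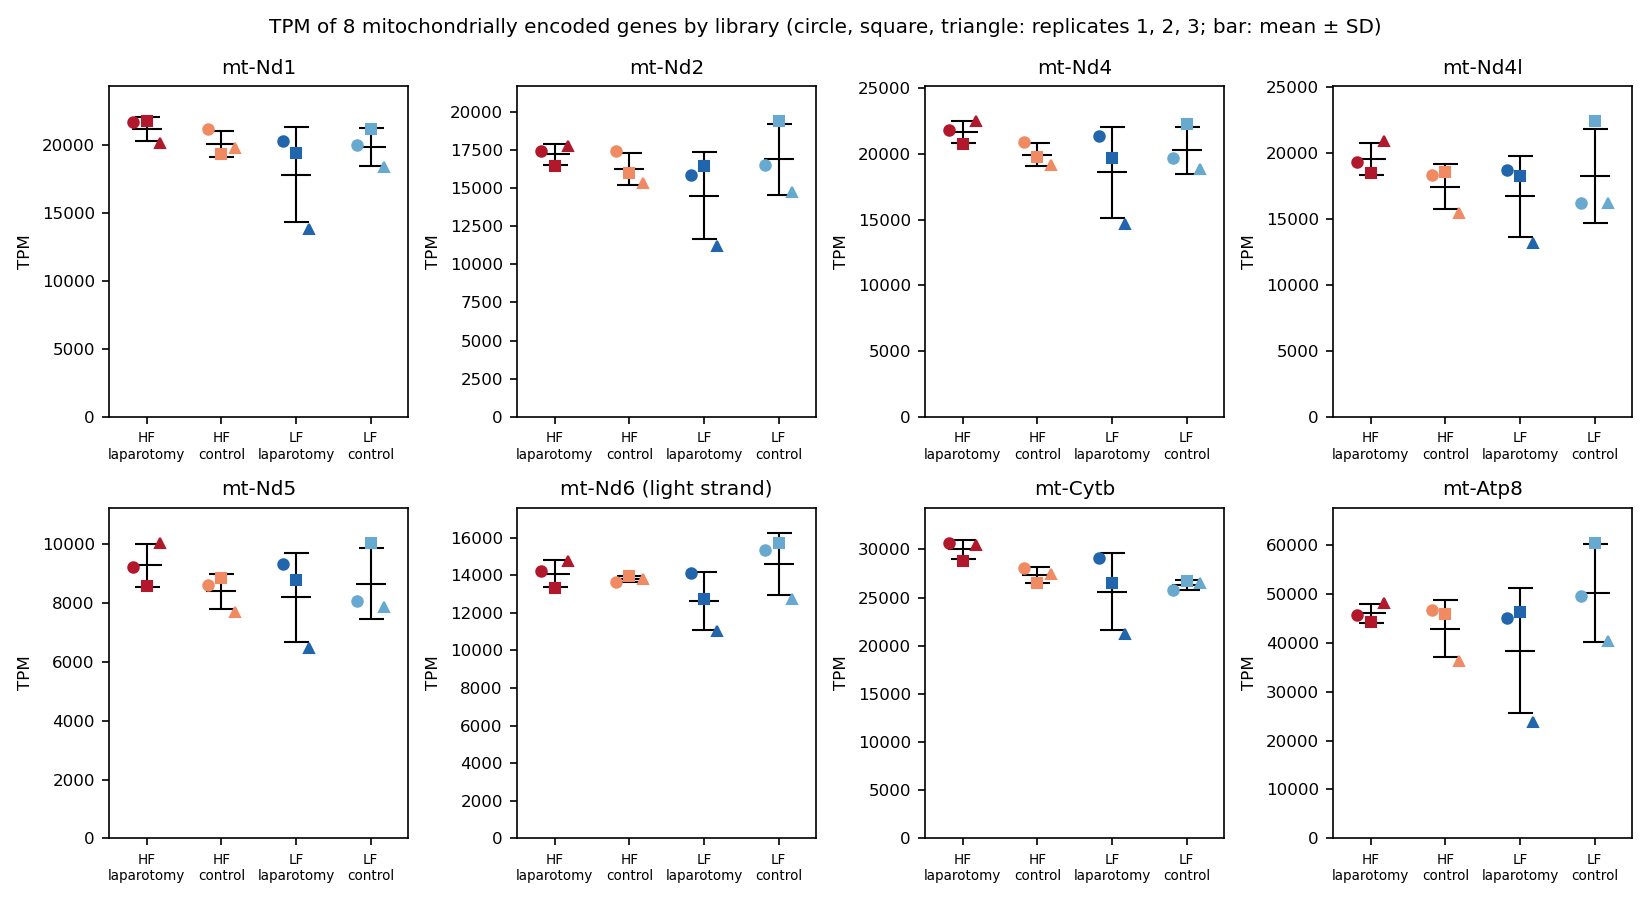
TPM (y axis, from 0) of each of the 8 genes in every library, grouped as HF laparotomy, HF control, LF laparotomy and LF control; circles, squares and triangles are replicates 1, 2 and 3 and the bars are mean ± SD. The triangle of LF laparotomy is the lowest point in all 8 panels, and the HF laparotomy points of mt-Cytb lie above its HF controls.

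Laparotomy was compared with control to ask how the muscle of exercised old mice responds to surgery. No member passed an adjusted p of 0.05 in limma, whether in HF, in LF or averaged over both, and none had an unadjusted p under 0.05. Among all 10757 genes 0% passed in each of these comparisons, while 6.18% had an unadjusted p under 0.05 in HF, 2.71% in LF and 6.94% on average. In HF the 8 differences ran from 0.03 (mt-Nd6) to 0.17 (mt-Nd4l) on the log2 scale, with a median of 0.11 against −0.12 for all tested genes. In LF they ran from −0.43 (mt-Atp8) to −0.05 (mt-Cytb), with a median of −0.16 against −0.03 for all genes. Without LF laparotomy 3 the LF median of the members was 0.01 against −0.09 for all genes, and 5 of 8 were above 0. Averaged over HF and LF, the members' median was −0.03 against −0.07 for all genes, and without LF laparotomy 3 it was 0.055 against −0.11. The 95% intervals of that average over all 12 libraries reached from −0.50 (mt-Atp8) to 0.26 (mt-Nd4l).

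The interaction, which is the laparotomy difference in HF minus that in LF, was above 0 for all 8 members, between 0.18 (mt-Cytb) and 0.54 (mt-Atp8), and no member passed (limma, adjusted p = 1 each). The median was 0.26 against −0.09 for all genes, 0% of which passed, with 3.08% at an unadjusted p under 0.05. Without LF laparotomy 3 the median was 0.12 and the range 0.06 to 0.22. The members were measured in the same libraries, so their shared sign does not count as 8 separate results.

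HF and LF mice were compared to ask which transcripts go with function. In controls no member passed (limma), whereas 10.5% of all genes did. No member had an unadjusted p under 0.05 there, against 31.9% of all genes, and the members' median was −0.04 against −0.11 for all genes. After laparotomy no member passed, whereas 26% of all genes did, with 24.5% lower in HF. The share of all genes was 10.6% without LF laparotomy 3, and again no member passed. With all libraries kept, the members' differences after laparotomy ran from 0.17 (mt-Nd6) to 0.32 (mt-Atp8), with a median of 0.24 against −0.19 for all genes. mt-Cytb had the smallest p, with a difference of 0.24 ± 0.11 (SE, n = 3 libraries each, limma, adjusted p = 0.117) and a 95% interval from 0.0044 to 0.48; relative to the all-gene median the difference was 0.43. It was the single member with an unadjusted p under 0.05, at 0.0464 (limma), while 40.7% of all genes had one. Its adjusted p was 0.0386 when LF laparotomy 1 was left out. Without LF laparotomy 3 the members' median was 0.08, against −0.13 for all genes, with a range of 0.01 to 0.11.

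Averaged over treatments, no member differed between HF and LF past the threshold (limma), while 41.3% of all genes did, and none had an unadjusted p under 0.05, against 50.5% of all genes. mt-Cytb differed by 0.15 ± 0.08 (SE, n = 6 libraries each, limma, adjusted p = 0.139), mt-Nd1 by 0.14 ± 0.09 (adjusted p = 0.228) and mt-Nd6 by 0.04 ± 0.08 (adjusted p = 0.676). The median of the 8 was 0.10 against −0.15 for all genes, so relative to that shift it was 0.25. The median was 0.02 without LF laparotomy 3, against −0.12 for all genes, or 0.14 relative to that shift, with 5 of 8 members above 0, and again no member passed. With median-of-ratios size factors, which bring the median of all genes to about 0, the adjusted p of mt-Cytb was 0.0608 and again no member passed. The 95% intervals of the 8 members reached from −0.29 to 0.40, both for mt-Atp8. 

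**Figure D4:**
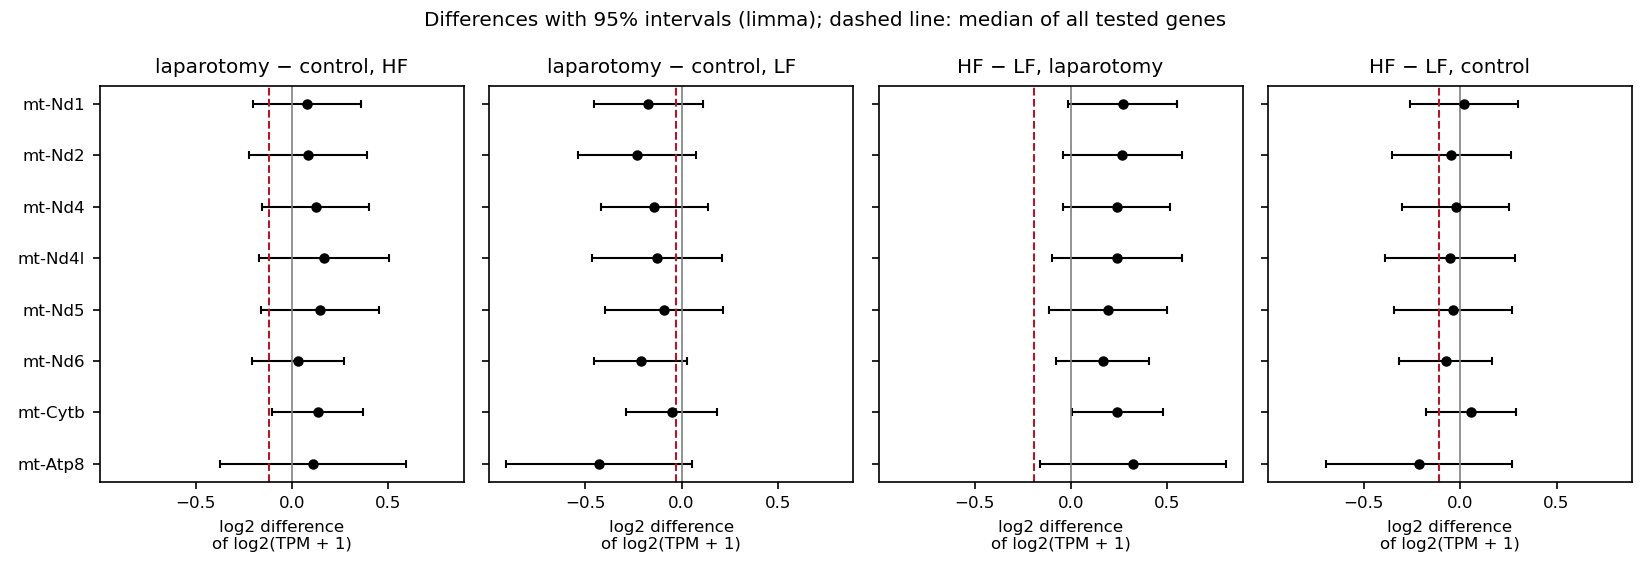
Difference on the log2 scale (x axis, points, with 95% limma intervals as bars) of the 8 genes for laparotomy minus control in HF and in LF and for HF minus LF after laparotomy and in controls; the dashed red line is the median of all tested genes. Every interval but that of mt-Cytb for HF minus LF after laparotomy spans 0, and in that panel all 8 points lie right of the dashed line at −0.19.

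The balance of the strands was followed by the ratio of mt-Nd6 to mt-Nd5, its tail to tail neighbour on the heavy strand transcript. The ratio was 1.54, 1.55 and 1.47 in HF laparotomy, 1.58, 1.58 and 1.79 in HF controls, 1.51, 1.44 and 1.70 in LF laparotomy and 1.90, 1.56 and 1.61 in LF controls. All HF laparotomy libraries lay below all HF controls, and the LF groups overlapped. In HF the difference of the log2 ratio was −0.11 (exact permutation test, two-sided, n = 3 each, p = 0.1, the smallest the design allows). In LF it was −0.12 (exact permutation, p = 0.4). Averaged over HF and LF it was −0.12 (exact permutation within HF and within LF, n = 6 each, p = 0.09, adjusted over 6 comparisons p = 0.3).

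With mt-Cytb in place of mt-Nd5 the averaged difference was −0.13 (exact permutation, p = 0.045, adjusted over 6 comparisons p = 0.23). The ratio of mt-Nd6 to mt-Cytb was 0.462 to 0.484 in HF laparotomy, 0.485 to 0.527 in HF controls, 0.480 to 0.518 in LF laparotomy and 0.480 to 0.596 in LF controls. Without LF laparotomy 3 the averaged difference of mt-Nd6 to mt-Nd5 was −0.15 (exact permutation, p = 0.03, before adjustment). With all libraries kept, no strand comparison passed after adjustment over the 6. Comparisons with a library left out were not adjusted. Between HF and LF the ratio to mt-Nd5 differed by −0.03 on average (exact permutation, p = 0.635), and the ratio to mt-Cytb by −0.10 (exact permutation, p = 0.115). Where the quantification did not use the strand of the reads, RNA of the opposite strand across mt-Nd6 would be counted with it; the sources used here do not give the strand setting, although the library kit keeps the strand.

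The ratio of mt-Atp8 to mt-Atp6, which lie on 1 message and share 43 bases, was near 1 but not fixed. It was 1.045 to 1.158 in HF laparotomy, 0.948 to 1.164 in HF controls, 0.821 to 1.252 in LF laparotomy and 1.137 to 1.371 in LF controls. Its extremes were again LF laparotomy 3 and LF control 2. mt-Nd4l over mt-Nd4, likewise on 1 message, kept to 0.809 to 1.004, with means of 0.902 in HF laparotomy, 0.875 in HF controls, 0.901 in LF laparotomy and 0.895 in LF controls.

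**Figure D5:**
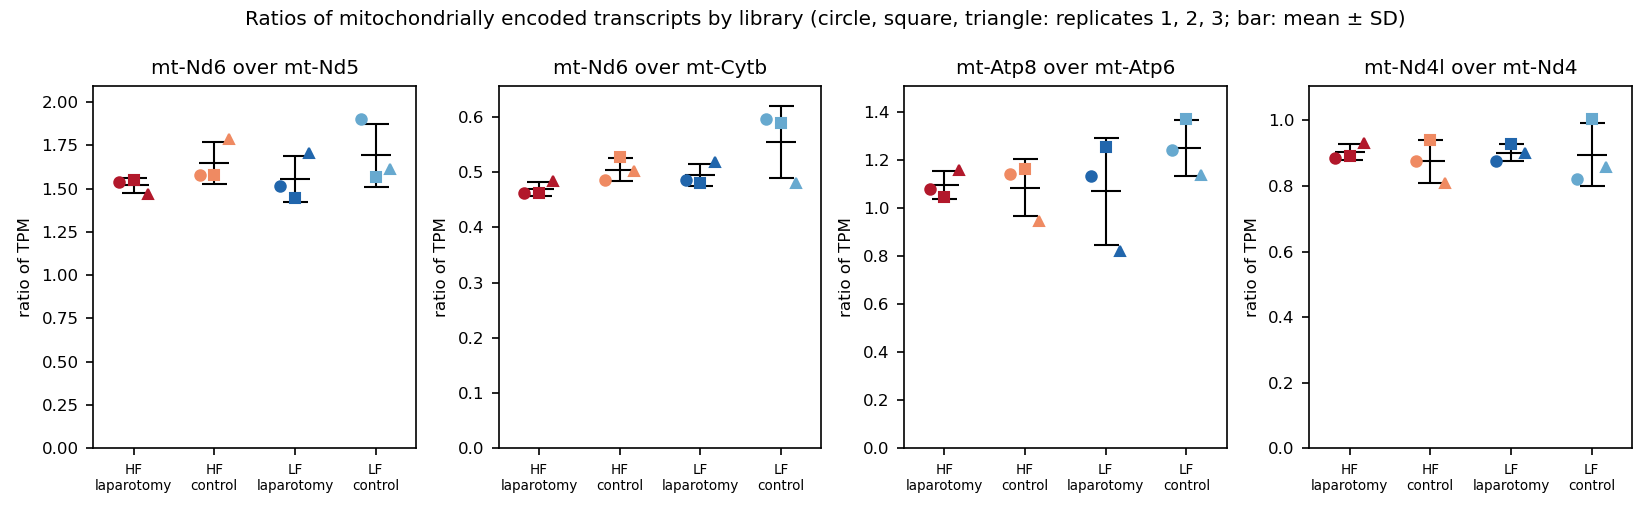
Ratios of TPM (y axes, from 0) of mt-Nd6 to mt-Nd5, mt-Nd6 to mt-Cytb, mt-Atp8 to mt-Atp6 and mt-Nd4l to mt-Nd4 in every library by group, with symbols for replicates and bars of mean ± SD. The HF laparotomy points of both mt-Nd6 ratios lie below all HF controls, and the lowest mt-Atp8 to mt-Atp6 ratio, 0.821, is LF laparotomy 3.

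Nuclear copies of mitochondrial DNA can take or lend reads. On chromosome 1 of GRCm38, the pseudogene Gm28439 matches 876 bases of mt-Nd4 and Gm10222 matches 294 of the 297 bases of mt-Nd4l, each at 100% identity; both were listed at 0 TPM in all 12 libraries, and how reads shared with them were assigned is not known. Gm13339 matches 510 bases of mt-Nd2 at 96.7% and reached 1.84 TPM. Copies of mt-Nd5 (Gm11407 and Gm4076), mt-Nd6 (Gm11408) and mt-Cytb (Gm11410), at 92.3% to 95.2% identity, stayed under 1 TPM. mt-Atp8 matches Gm10925, a copy of mt-Atp6 with 15.2 to 1474 TPM, in the same 43 bases that it shares with mt-Atp6 itself, so those reads are uncertain. No annotated transcript of at least 90% identity was found for mt-Nd1.

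The members varied together across libraries. Over the 12 libraries, which share the 100% total of TPM, Pearson's r of log2 levels ran from 0.651 to 0.981 in the 21 pairs of heavy strand members and from 0.608 to 0.861 in the 7 pairs with mt-Nd6. mt-Nd4l and mt-Nd5 were most alike, at 0.981. The likeness was weaker with 1 library left out: without LF laparotomy 3, a choice made after its values were seen, the median r was 0.680 in heavy strand pairs and 0.493 in pairs with mt-Nd6, while mt-Nd6 with mt-Cytb was at 0.06 and the heavy strand pair of mt-Cytb and mt-Atp8 at −0.092. mt-Nd4l with mt-Nd5 stayed at 0.968.

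The 10238 genes compared left out mitochondrially encoded genes, their copies and all other tested genes with predicted, Riken or clone names. Over 12 libraries, Zfp654 (r = 0.908) and Srsf9 (0.814), a splicing factor, were most like the mean of the 7 heavy strand members. Hnrnph1 (0.813), an RNA-binding protein, came next. Those most like mt-Nd6 were Ppp4r1l-ps (0.787), Zfp53 (0.786) and Abca8a (0.783), a lipid transporter of the ABC family. Without LF laparotomy 3 the heavy strand list was Cdkl3 (0.939), Hnrnph1 (0.882) and Zfp654 (0.786), and the mt-Nd6 list Ccn2 (0.864), a secreted matrix protein, Rbm43 (0.762) and Fnip2 (0.762). The mt-Nd6 lists had no gene in common, and these r are descriptions of 12 or 11 libraries. Zfp654, Zfp53 and Rbm43 averaged only 1.155, 1.118 and 1.223 TPM, just above the filter of 1 TPM.

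Nuclear genes that make, process or accompany these messages were not called in any laparotomy comparison or in the interaction (limma, 0 in each list, as for all genes). Between HF and LF, averaged over treatments, 6.03% of all genes were higher and 35.3% lower in HF, and with size factors 17.4% were higher among 40% called, so directions are also given with size factors. Some cell markers also separated these groups. The sum of 5 Schwann cell markers was 50.3 to 166 TPM in HF and 33.1 to 43.2 TPM in LF libraries. Of the 7 endothelial markers only Egfl7 separated them, at 71.0 to 94.0 TPM in HF and 48.1 to 56.1 TPM in LF libraries. Cdh5, Kdr, Pecam1, Emcn, Tie1 and Vwf overlapped between HF and LF. Of the 8 fast fibre markers, Myh2, a myosin, was at 1098 to 2082 TPM in HF and 2345 to 3381 TPM in LF libraries. Actn3 of the same list overlapped, at 10.1 to 187 TPM in HF and 9.15 to 66.5 TPM in LF libraries. Pvalb, Myh1, Myh4, Tnnt3, Tnni2 and Tnnc2 of that list overlapped as well. The sums of the other 8 marker lists overlapped between HF and LF, and the part of these markers in the lists below was not tested. Of 8 tested genes of mitochondrial transcription, 1 rose and 5 fell in HF (2 and 2 with size factors). The differences given for single genes of these lists are averaged over treatments and include the all-gene shift of −0.15. Relative to that shift, falls are smaller and rises larger. Polrmt, the mitochondrial RNA polymerase, averaged 18.4 ± 0.46 TPM in HF laparotomy, 18.6 ± 1.3 in HF controls, 12.9 ± 2.2 in LF laparotomy and 12.4 ± 2.7 in LF controls (SD, n = 3 each). Its difference was 0.53 ± 0.10 on the log2 scale (SE, limma, adjusted p = 0.00199). Tfam, which packs mitochondrial DNA and starts its transcription, fell by 0.45 (limma, adjusted p = 0.00136), with means of 21.9 and 22.8 TPM in HF laparotomy and HF controls against 30.8 and 31.1 TPM in LF laparotomy and LF controls. Mterf2, of the transcription terminator family, fell by 0.38 (limma, adjusted p = 0.00269).

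Of 20 tested genes of mitochondrial RNA processing and stability, none rose and 13 fell in HF (2 and 9 with size factors). Lrpprc, which stabilises and helps polyadenylate mitochondrial messages, averaged 23.0 ± 0.26 TPM in HF laparotomy, 28.5 ± 3.8 in HF controls, 39.7 ± 9.3 in LF laparotomy and 43.3 ± 4.7 in LF controls (SD, n = 3 each). Its difference was −0.66 ± 0.11 (SE, limma, adjusted p = 0.000883). Ptcd3, a protein of the mitochondrial ribosome, fell by 0.81, and Fastkd1, an RNA-binding protein of the FASTK family, fell by 0.53. Of 11 genes of mitochondrial DNA maintenance none rose and 2 fell, Rrm2b, a ribonucleotide reductase subunit, by 0.51 and the helicase Twnk by 0.40. This share was below the 35.3% of all genes that were lower.

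Of 36 nuclear subunits of complex I, 15 rose and 2 fell (24 and 2 with size factors), and 19 did not pass. After laparotomy alone, 0 rose and 2 fell in HF (8 and 0 with size factors). In controls alone, 8 rose and 1 fell (13 and 0 with size factors). Of all genes, 1.5% were higher and 24.5% lower in HF after laparotomy, against 2.44% and 8.04% in controls. Without the LF laparotomy library that stood apart above, 1 subunit rose and 1 fell after laparotomy. Whether the counts differ between laparotomy and controls was not tested. Averaged over treatments, the 2 that fell were Ndufs1, the large iron-sulphur subunit, by 0.44, and Ndufa10, an accessory subunit, by 0.49. In the same average the accessory subunit Ndufb2 rose by 0.34 (limma, adjusted p = 0.00273). Of 15 complex I assembly genes 1 rose and 8 fell (2 and 5 with size factors). Among these Acad9, which acts in complex I assembly, fell by 0.52, Foxred1 by 0.38 and Ndufaf1 by 0.36.

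Of 15 nuclear genes of complex III, to which mt-Cytb belongs, 4 rose and 4 fell (7 and 3 with size factors). Uqcrc2, a core subunit, fell by 0.57, and the assembly factors Uqcc1, which is needed for cytochrome b, and Lyrm7 fell by 0.78 and 0.44. Of 17 nuclear ATP synthase subunits, the partners of mt-Atp8, 6 rose and 1 fell (13 and 0 with size factors). The catalytic subunit Atp5b rose by 0.32 and the small subunit Atp5mpl by 0.30. Atp5a1 fell by 0.36 (limma, adjusted p = 0.00274), and with size factors its adjusted p was 0.0812. Exons of Ndufs1, Ndufb2, Atp5a1, Mterf2 and Twnk overlap a tested gene on the opposite strand, so reads there are uncertain if strand was not used. The 5 other mitochondrially encoded genes held no call (1 with size factors).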

How the data were processed

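Polyadenylated RNA of mouse soleus was sequenced in 12 libraries, 3 in each of 4 groups, by a strand-keeping Illumina protocol, per the labels. The authors deposited TPM per gene; kallisto, DESeq2 and GRCm38 are named per the submitters' processing notes, with no role or version. Read depth is unknown. Symbols, coordinates and sequences came from GENCODE M21 (GRCm38); 29857 identifiers matched and 466 did not. The 10757 genes averaging 1 TPM or more, all 8 members included, were tested as log2(TPM + 1) with limma 3.58.1 in R 4.3.3 (mean-variance trend, 8 residual degrees of freedom, 4 group means, two-sided, Benjamini-Hochberg over all tested genes per contrast, threshold 0.05). The script was tested on simulated data. Strand ratios were compared by exact permutation. Copies were sought with blastn 2.17.0 at 90% identity. From each list at most 3 genes past the threshold with the smallest p were named, and for likeness the 3 highest correlations. The members and lists were chosen with earlier results of these data known. The mitochondrial ribosomal RNAs mt-Rnr1 and mt-Rnr2 were absent from the deposited values, so they were not analysed here. Alternatives covered the pseudocount, filter, scaling, spread estimate, groups in the fit and each library left out.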

Additional observations from a re-analysis of the deposited data

How the results depend on the processing

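Of 904 recomputed member differences, 903 stayed on the same side of the threshold as the reported value and 1 passed it: mt-Cytb for HF against LF after laparotomy without LF laparotomy 1 (0.34, limma, adjusted p = 0.0386). The number of members past the threshold in that comparison thus ran from 0 to 1 over the libraries left out, and was 0 in every other comparison and alternative that was run. The sign turned in 61 of the 904, none of them called, most often without LF laparotomy 3 (11), with quantile normalization (10) and with size factors (9). The averaged laparotomy difference in the ratio of mt-Nd6 to mt-Nd5 was −0.1183 (exact permutation, p = 0.09). For the ratio of mt-Nd6 to mt-Cytb it was −0.1316 (exact permutation, p = 0.045). With 1 library left out, the mt-Nd5 difference ran from −0.1523 (without LF laparotomy 3, exact permutation, p = 0.03) to −0.0749 (without LF control 1, exact permutation, p = 0.21). The cause was not tested, and the mt-Cytb ratio was not rerun with a library left out. No paired analysis was possible because the labels give no replicate numbers that groups share. With 3 libraries a group and no depth, small differences may have been missed, and the printed intervals are not limits of detection. TPM shares 1 total, so a gene's value also moves with the rest.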
